A study of Oryctolagus cuniculus with 35 samples.

Results

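The lungs described here came from rabbits with pneumococcal pneumonia and adverse mechanical ventilation that were treated with mesenchymal stem cells (MSC), set against the lungs of healthy rabbits to ask what stays altered after the cells. They were chosen by the group label of each sample and comprise 14 libraries, 7 MSC and 7 healthy, of the 35 in the study. The MSC rabbits received human umbilical cord-derived cells intravenously, 3000000 per kg, 4 h after the bacteria were inoculated. A further 7 rabbits, called NaCl lungs, had the same infection and ventilation and received saline in place of the cells. The healthy rabbits received NaCl and no bacteria, and the labels do not say whether they were ventilated. All were New Zealand rabbits, with 1 library of lung messenger RNA per animal. Lung was sampled at an autopsy 24 h after inoculation, or at once where an animal died earlier, and the time of each animal is not given. No healthy rabbit in these groups received cells, so the comparison with healthy lung holds the infection, the ventilation and the cells together.

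In bacterial pneumonia, resident macrophages and epithelial cells sense the bacteria and release cytokines and chemokines through NF-kB, and these draw neutrophils and then monocytes from the blood. The flat type I cells of the alveolus carry gas exchange, and the type II cells make surfactant and renew the lining after injury. Infused stem cells are studied as a treatment because they release factors that restrain inflammation and, in other models, pass mitochondria to injured cells.

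The levels given are normalized reads, that is, whole reads per gene scaled jointly over the 21 MSC, NaCl and healthy libraries. Totals were 9642813 to 11987726 reads per MSC library, 7611988 to 14948358 per NaCl library and 7567008 to 12794413 per healthy library. The tables list 23669 genes, of which 10470 were at 0 in all 21 libraries. Defining genes of lung were high in the healthy libraries, with median levels of 117596 normalized reads for SFTPB (surfactant protein B), 15858 for SLC34A2 (the phosphate carrier of type II cells) and 73427 for AGER (a receptor abundant in type I cells). Other defining lung genes, among them SFTPC, SFTPD and ABCA3 of type II cells, FOXJ1 and SCGB1A1 of airway cells and CLDN5 of endothelium, were listed at 0 in every library and say nothing about those cells here.

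Some libraries stood apart before any gene was tested. On the first principal component over 9536 genes, which took 53.3% of the variance, the healthy libraries lay between 70.8 and 84.0, the NaCl libraries between -73.7 and -27.5, and 6 of the MSC libraries between -58.5 and -21.9. MSC replicate 6 lay at 48.9, near the healthy libraries. The counts of most gene lists and the values of some genes are therefore given with and without it. Whether that rabbit developed the pneumonia that its label gives cannot be told from the files. Some sample titles carry a 2-letter ending, PG or PD, whose meaning is not given. An ending marks 2 MSC libraries (replicates 6 and 7), 3 NaCl libraries (5, 6 and 7) and 5 healthy libraries. It was PG in the MSC and NaCl libraries, but PD in 4 of the healthy libraries and PG in 1. The fits pooled both endings, so values within libraries with an ending, or with it as a covariate, do not hold the ending constant. The second component, with 12.3% of the variance, set NaCl replicates 5 to 7 and MSC replicate 7, at 47.0 to 63.3, above all other libraries. A further mark in the library descriptions, S00, stands on all 7 healthy libraries and on no MSC library, so that between them what it marks and the group cannot be told apart. It also stands on NaCl replicate 2, which lay at -64.5 on the first component, within the range of the other NaCl libraries.

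**Figure D1:**
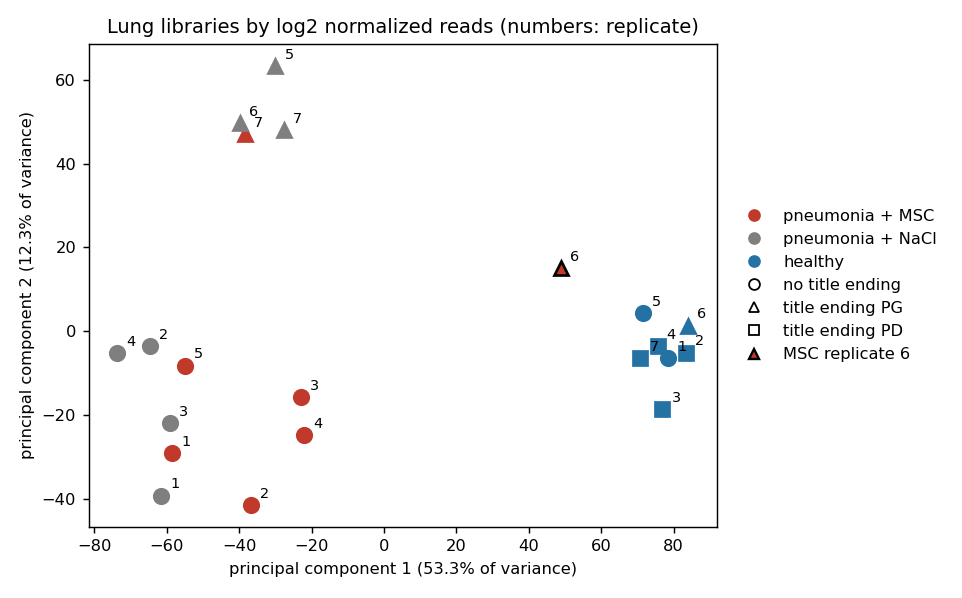
Each point is 1 lung library, placed by its first (horizontal) and second (vertical) principal component of log2 normalized reads; colours give the group, symbols the title ending and numbers the replicate. The 7 healthy libraries sit together at the right, MSC replicate 6 (black outline) lies next to them at 48.9, and the other 6 MSC libraries lie at -58.5 to -21.9 on the horizontal axis, beside NaCl libraries at -73.7 to -27.5; MSC replicates 3 and 4, at -22.8 and -21.9, lie outside the NaCl range on the healthy side.

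Most of the measured transcriptome differed between MSC lungs and healthy lungs. Of 9641 genes tested by limma, 5016 passed an adjusted p of 0.05, which is 52.0%, with 2489 higher (25.8%) and 2527 lower (26.2%) in MSC lungs, and 5614 (58.2%) had an unadjusted p under 0.05. Of these, 2554 (26.5%) differed by 1 log2 unit or more, and the median over all genes tested was -0.0023. Without MSC replicate 6 the fit called 5487 of 9731 genes (56.4%), 2714 higher (27.9%) and 2773 lower (28.5%), and 4937 genes were called both with and without it. The ranges of the 2 groups did not overlap for 1280 genes (13.3%), and for 2749 genes (28.5%) when that library was left out. Within the libraries with no title ending, 5 MSC against 2 healthy, 3231 genes passed (33.1%), and within those with an ending, 2 MSC against 5 healthy, 590 passed (6.04%), replicate 6 being 1 of the 2 MSC libraries there. With the ending as a covariate 4172 genes passed (43.3%). Of 83 genes named by rule that could be fitted within libraries with an ending, 36 lost their call there. NaCl lungs differed from the same healthy libraries at 5809 of 9647 genes (60.2%), 29.0% higher and 31.2% lower, with no overlap for 29.6% and an unadjusted p under 0.05 for 63.7%. In bulk tissue, fewer cells of a type and less RNA per cell cannot be told apart, which holds for each cell type marker below.

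How far each MSC lung lay from healthy was measured on 1087 genes that differed in NaCl lungs by 2 log2 units or more. For each library the shift from the healthy mean was divided by the mean NaCl shift, so that healthy lungs lie near 0 and NaCl lungs near 1. The median over genes was 0.718 to 0.985 in 6 MSC libraries and 0.218 in MSC replicate 6, against 0.863 to 1.16 in the NaCl libraries. In those 6 MSC libraries 90.5% to 98.4% of the genes lay outside the healthy range, and in replicate 6 54.2% did. The genes were chosen on NaCl lungs, and the measure is a description with no test. The MSC lungs also varied more among themselves than healthy lungs, and so did the NaCl lungs. On the log2 scale the median standard deviation of a gene was 0.460 in MSC lungs and 0.408 without replicate 6. It was 0.487 in NaCl lungs and 0.329 in healthy lungs. Of 9641 genes, 6826 had a larger standard deviation in MSC than in healthy lungs.

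Cytokine and chemokine transcripts stayed far above healthy in MSC lungs. Of 15 tested inflammatory cytokine genes, 12 rose and 1, IL18, fell, with a median log2 fold change of 4.55, beside 52.0% of all genes called and a median near 0. Without MSC replicate 6, 18 genes could be tested, of which 15 rose and 1 fell, with a median of 5.19. In NaCl lungs 15 of 18 rose and 1 fell, with a median of 4.63. The median of 4.55 covers 15 genes and the other 2 cover 18, so they describe unlike sets of genes. A gene near 0 in healthy lungs, such as IL6, is tested only through its high libraries. Its rise in these counts is therefore no separate support.

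CXCL8, the chief chemokine that draws neutrophils (ENSOCUG00000011835), had a lowest, median and highest level of 341, 7821 and 37619 normalized reads in MSC lungs, against 20320, 24950 and 229266 in NaCl lungs and 39.5, 94.3 and 107 in healthy lungs. All MSC libraries lay above all healthy ones, and the 341 of replicate 6 was far below the 5227 or more of the other 6. The log2 fold change from healthy was 6.60 (SE 0.78, adjusted p = 5.46e-05), and 7.36 without replicate 6. Within title endings it was 7.27 with none and 4.39 with one. The direct difference in CXCL8 between MSC and NaCl lungs was -2.59 by limma and did not pass (adjusted p = 0.207). By DESeq2 it was -2.37 and passed (adjusted p = 0.0479). CCL2, which draws monocytes (ENSOCUG00000021710), had 630, 8740 and 23954 normalized reads in MSC lungs, 1495, 16592 and 24552 in NaCl lungs and 62.1, 100 and 204 in healthy lungs. MSC and healthy lungs did not overlap here either, and the log2 fold change was 5.85 (SE 0.62, adjusted p = 4.32e-05), or 6.41 without replicate 6. CCL4, which attracts monocytes and T cells (ENSOCUG00000026206), had 24.2, 1780 and 51915 normalized reads in MSC lungs, 1069, 4195 and 74093 in NaCl lungs and 9.81, 22.4 and 77.3 in healthy lungs. Only MSC replicate 6 fell within the healthy range of CCL4; the log2 fold change was 6.09 (SE 1.15, adjusted p = 0.000626), and 2.34 (adjusted p = 0.178) within libraries with a title ending.

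IL6, the cytokine that drives the acute phase response (ENSOCUG00000027471), had 8.86, 1974 and 11206 normalized reads in MSC lungs, 1549, 15567 and 38862 in NaCl lungs and 0, 2.05 and 5.45 in healthy lungs. Every MSC library lay above every healthy one, but replicate 6 was below the level of 10 that 7 of 14 libraries had to reach, so IL6 was not tested in the chosen fit. With a filter that asks for 1 library only, the limma log2 fold change was 8.70 (SE 1.18, adjusted p = 0.0001), and without replicate 6 it was 9.89. CSF3, the growth factor of granulocytes, and IL10, a cytokine that restrains inflammation, missed the same filter, and under the wider one they rose by 7.08 and 3.39 on the log2 scale. IL1B, the inflammasome-released interleukin, had a log2 change of 3.67 (SE 0.63, adjusted p = 0.00032) and TNF one of 3.66 (SE 0.63, adjusted p = 0.000326). Both fell short of the threshold within libraries with a title ending, at 1.45 (adjusted p = 0.113) for IL1B and 1.28 (adjusted p = 0.0818) for TNF. CCL20, a chemokine for dendritic cells and lymphocytes, had 10.4, 182 and 1461 normalized reads in MSC lungs against 50.7, 91.4 and 111 in healthy lungs, and its log2 fold change of 0.87 (95% interval -0.75 to 2.49) did not pass.

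The feedback genes of NF-kB and the prostaglandin gene of the list rose together: 11 of 11 tested members were higher in MSC lungs than in healthy lungs, with and without MSC replicate 6, and the median log2 fold change was 1.87 and 2.14. The same 11 were called in NaCl lungs, with a median of 2.64, and the mean of each of the 11 was lower in MSC than in NaCl lungs without any passing that test. NFKBIZ, an inhibitor-like regulator that NF-kB itself induces (ENSOCUG00000000133), had 410, 2045 and 4074 normalized reads in MSC lungs, 1993, 4993 and 7314 in NaCl lungs and 131, 224 and 260 in healthy lungs. MSC and healthy lungs did not overlap, and the log2 fold change was 3.08 (SE 0.39, adjusted p = 7.13e-05). PTGS2, the inducible cyclooxygenase, had 486, 5836 and 12225 normalized reads in MSC lungs, 5071, 20907 and 27158 in NaCl lungs and 214, 275 and 568 in healthy lungs, with a log2 fold change from healthy of 3.56. NFKBIA, the inhibitor that holds NF-kB in the cytoplasm, had the highest p of the tested members, with a log2 fold change of 0.96 (adjusted p = 0.0158), and was -0.22 (adjusted p = 0.496) within libraries with a title ending.

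**Figure D2:**
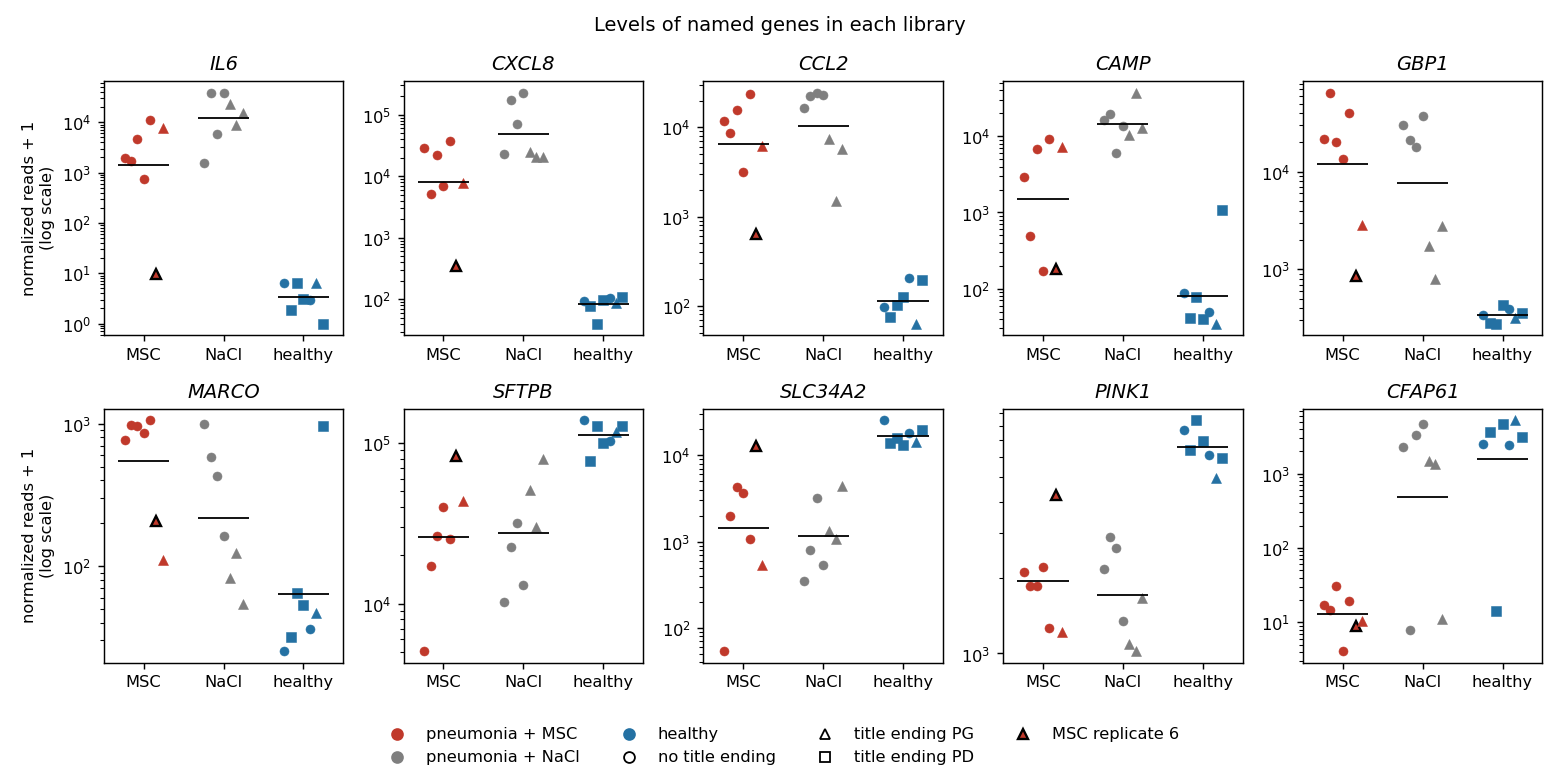
Normalized reads plus 1 on a log axis for 10 genes, with 1 point per library in MSC, NaCl and healthy lungs from left to right; symbols give the title ending, a black outline marks MSC replicate 6 and the horizontal bars are group means on the log2 scale. CXCL8 and CCL2 show no overlap of MSC with healthy lungs, MSC replicate 6 lies nearest to healthy for IL6 (8.86) and CXCL8 (341), and CFAP61 is low in all 7 MSC libraries.

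Neutrophil genes were raised in MSC lungs: 7 of 9 tested members rose and 1 fell, with a median log2 fold change of 2.82, and 7 of 9 rose and 1 fell without MSC replicate 6, with a median of 3.23. In NaCl lungs 7 of 8 rose and 1 fell, with a median of 4.33. The summed level of the list was 30330 to 653864 normalized reads in MSC lungs, 161328 to 1413450 in NaCl lungs and 15433 to 100202 in healthy lungs. S100A8, which forms part of calprotectin in neutrophils (ENSOCUG00000009566), had 11758, 102609 and 243207 normalized reads in MSC lungs, 60162, 277407 and 421577 in NaCl lungs and 5026, 11053 and 30836 in healthy lungs. MSC replicate 6, at 11758, lay near the healthy median, and the other 6 MSC libraries were all above the healthy range. The log2 fold change was 2.93 (SE 0.55, adjusted p = 0.000614), and 3.40 without that library, but 1.45 (adjusted p = 0.236) within libraries with a title ending.

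CAMP, the cathelicidin antimicrobial peptide of neutrophil granules (ENSOCUG00000015518), had 168, 2876 and 9077 normalized reads in MSC lungs, 5950, 13746 and 37468 in NaCl lungs and 33.8, 48.7 and 1067 in healthy lungs. Here the MSC and healthy ranges overlapped, since healthy replicate 7 stood at 1067. CAMP rose from healthy by a log2 change of 4.25 (SE 1.02, adjusted p = 0.00304), and its difference between MSC and NaCl lungs was -3.25 (95% interval -5.19 to -1.31, adjusted p = 0.168). IL1R2, the decoy receptor of interleukin 1, rose by 4.59 (SE 0.72, adjusted p = 0.000189), with 201 normalized reads in MSC replicate 6 and at least 2560 in the other MSC lungs. CYBB, the catalytic subunit of the phagocyte oxidase, was the member that fell, by 0.59 on the log2 scale. MPO, the peroxidase of neutrophil granules, was low in all groups, with 2.74 to 147 normalized reads in MSC lungs and 1.97 to 62.7 in healthy lungs, and did not pass. Another 8 genes of the list, among them MMP9, CSF3R and FPR1, were at 0 in every library.

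Monocyte and macrophage genes were also above healthy: 9 of 13 tested members rose and none fell, with a median log2 fold change of 1.82, and without MSC replicate 6 10 of 13 rose, with a median of 1.93. In NaCl lungs 6 of 13 rose and none fell, with a median of 1.17. The mean of 10 of the 13 was higher in MSC than in NaCl lungs, a difference that passed the test for none of them. CD14, the co-receptor for bacterial lipopolysaccharide on monocytes (ENSOCUG00000004218), had 3989, 8249 and 25550 normalized reads in MSC lungs, 5544, 17754 and 28651 in NaCl lungs and 1515, 2003 and 2873 in healthy lungs. All MSC libraries, replicate 6 included, lay above the healthy ones, with a log2 change of 2.20 (SE 0.32, adjusted p = 0.000121). MSR1 and MRC1, scavenger and mannose receptors of macrophages, rose by 2.99 and 1.51, and CSF1R, the receptor of the macrophage growth factor, by 1.82. SPP1, osteopontin, ranged from 101 to 1430 normalized reads in MSC lungs and from 45.8 to 2132 in healthy lungs and did not pass (adjusted p = 0.478).

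MARCO, a scavenger receptor of alveolar macrophages (ENSOCUG00000006893), rose in MSC lungs by a log2 change of 3.10 (SE 0.74, adjusted p = 0.00283) and did not pass in NaCl lungs, at 1.76 (adjusted p = 0.0661). Its lowest, median and highest levels were 109, 863 and 1057 normalized reads in MSC lungs, 53.4, 161 and 991 in NaCl lungs and 24.2, 45.8 and 961 in healthy lungs. The 5 MSC libraries with no title ending held 764 to 1057 and the 2 with an ending 205 and 109, while 1 healthy library, replicate 7, stood at 961. Within libraries with no ending the log2 fold change was 4.93 (adjusted p = 6.23e-05), and within those with one it was 0.80 (adjusted p = 0.641). The difference between MSC and NaCl lungs, 1.34, did not pass (adjusted p = 0.332).

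Lymphocyte genes showed little movement. Of 6 tested T and NK cell genes, 1 rose and 1 fell, with a median log2 fold change of 0.07, and without MSC replicate 6 1 of 7 rose and 1 fell, with a median of 0.19. The summed level of that list was 610 to 1275 normalized reads in MSC lungs against 934 to 1794 in healthy lungs. CD247, the signalling chain of the T cell receptor (ENSOCUG00000027626), had 78.7, 125 and 213 normalized reads in MSC lungs, 90.0, 168 and 474 in NaCl lungs and 580, 641 and 859 in healthy lungs. MSC and healthy lungs did not overlap, and the log2 fold change was -2.41 (SE 0.21, adjusted p = 6.32e-06), while PRF1, the pore-forming perforin of killer cells, rose by 1.32 (adjusted p = 0.00185). CD4 stood at 101 to 270 normalized reads in MSC lungs and 19.6 to 407 in healthy lungs, with a log2 fold change of -0.07 (adjusted p = 0.917). None of 6 tested B and plasma cell genes passed, with a median of 0.07, and without MSC replicate 6 only BLK, a kinase of B cells, did.

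Class II antigen presentation showed no larger share of called genes than the whole transcriptome. Of 7 tested genes of the pathway, 3 rose and none fell, beside 52.0% of all genes called in either direction, with a median log2 fold change of 0.36, and the same count held without MSC replicate 6. These were CTSS, the protease that frees the class II groove (1.37, adjusted p = 0.00242), RLA-DMB, a rabbit peptide-loading chain (1.03, adjusted p = 0.0172), and CIITA, the master switch of class II transcription (0.72, adjusted p = 0.039). In NaCl lungs none of the 7 rose and 1 fell, with a median of -0.11, and the direct difference between MSC and NaCl lungs passed for none. CD74, the invariant chain, had 27272, 35734 and 57467 normalized reads in MSC lungs and 20946, 38306 and 58272 in healthy lungs. Those ranges overlapped almost wholly, and the 95% interval of the difference ran from -0.43 to 0.57 on the log2 scale.

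Interferon-induced genes rose as a whole, 9 of 9 with and without MSC replicate 6, with a median log2 fold change of 2.61 and 2.67. NaCl lungs also had 9 of 9 higher, with a median of 2.39. GBP1, a guanylate-binding protein of cell-autonomous defence (ENSOCUG00000017251), had 850, 20230 and 64940 normalized reads in MSC lungs, 803, 17931 and 37556 in NaCl lungs and 278, 339 and 430 in healthy lungs. MSC and healthy lungs did not overlap, with a log2 change of 5.15 (SE 0.74, adjusted p = 0.000119). It was 6.22 within libraries with no title ending and 2.25 (adjusted p = 0.0254) within those with one. DDX58 and IFIH1, sensors of foreign RNA, rose by 2.35 and 1.64. DHX58, of the same receptor family, rose by 1.58 (adjusted p = 0.00297), and its lowest MSC level of 250 lay within the healthy range of 231 to 374. Of the 4 complement genes tested, C2, a protease of the classical pathway, rose by 2.01 (adjusted p = 0.0267), with 161 to 12620 normalized reads in MSC lungs and 150 to 366 in healthy lungs. SERPING1, the inhibitor of the first component, did not pass at 0.13, and within libraries with a title ending C2 stood at -0.25 (adjusted p = 0.656).

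**Figure D3:**
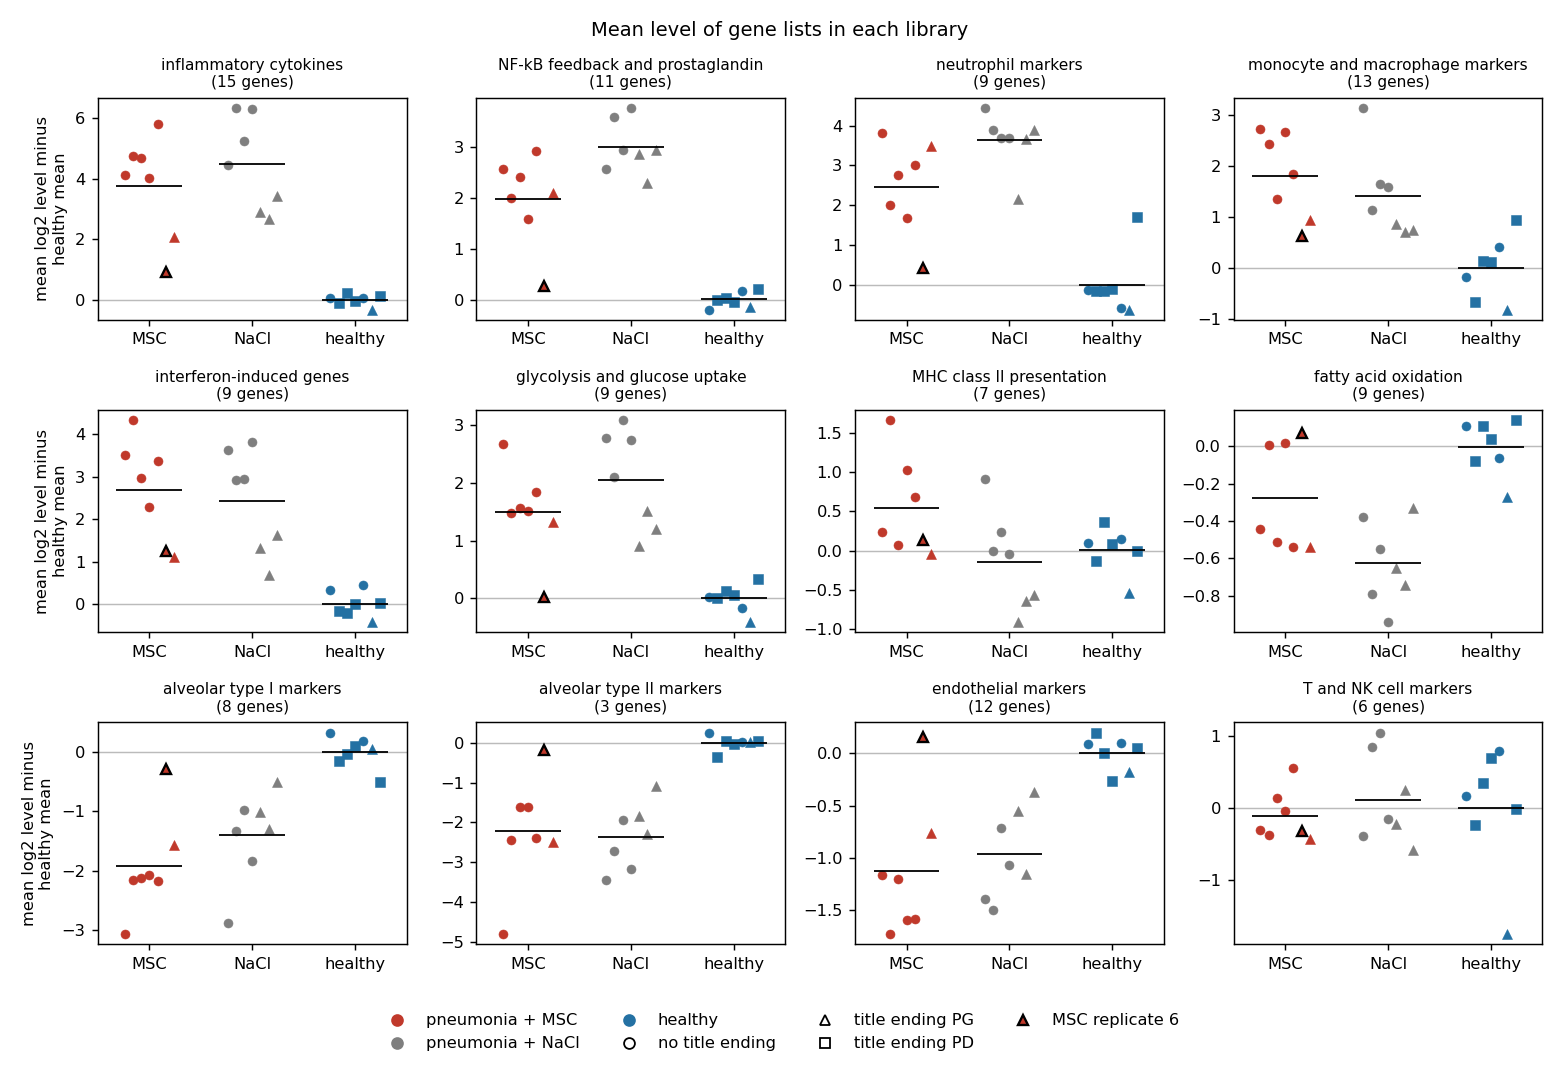
Mean of log2(normalized reads + 1) over the tested members of each list minus the mean of the 7 healthy libraries (vertical axis, log2 units), with 1 point per library in MSC, NaCl and healthy lungs from left to right; symbols give the title ending and a black outline marks MSC replicate 6. For inflammatory cytokines MSC replicate 6 stands at 0.93 and the other MSC libraries at 2.08 to 5.79, and for alveolar type II genes replicate 6 stands at -0.19 and the others at -4.81 to -1.60.

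Epithelial genes of the alveolus stayed below healthy in MSC lungs. All 3 tested type II genes fell, with a median log2 fold change of -2.09, and all 8 tested type I genes fell, with a median of -1.84. The counts were the same without MSC replicate 6, with medians of -2.37 and -2.01, and in NaCl lungs 3 of 3 and 7 of 8 fell, with medians of -2.02 and -1.64. SFTPB (ENSOCUG00000020733) had 5071, 26489 and 83238 normalized reads in MSC lungs, 10309, 29887 and 79796 in NaCl lungs and 77494, 117596 and 138790 in healthy lungs. Only MSC replicate 6, at 83238, lay within the healthy range, and the other 6 reached at most 43779. The log2 fold change was -2.09 (SE 0.45, adjusted p = 0.00148), and -0.84 (adjusted p = 0.143) within libraries with a title ending. SLC34A2 (ENSOCUG00000002944) had 52.8, 1999 and 12930 normalized reads in MSC lungs, 347, 1078 and 4469 in NaCl lungs and 13225, 15858 and 25560 in healthy lungs. No MSC library reached the healthy range, replicate 6 being the highest, and the log2 fold change was -3.55 (SE 0.86, adjusted p = 0.00307), or -4.08 without that library. ETV5, a transcription factor that keeps the type II state, fell by 1.02 on the log2 scale.

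Among type I genes, EMP2, a membrane protein of the flat cells (ENSOCUG00000022309), had 1381, 2115 and 14708 normalized reads in MSC lungs, 1327, 3457 and 8700 in NaCl lungs and 12019, 14924 and 17211 in healthy lungs. MSC replicate 6 stood at the healthy level and the other 6 between 1381 and 2838. The log2 fold change was -2.47 (SE 0.40, adjusted p = 0.000216), and -2.89 (adjusted p = 2.74e-08) without replicate 6, but -1.15 (adjusted p = 0.16) within libraries with a title ending. RTKN2 fell by 3.02, COL4A3, a collagen of the alveolar basement membrane, by 2.17, and AGER by 1.93 on the log2 scale. CAV1, the coat protein of caveolae that endothelium also makes, had the highest p of the list and still fell by 1.29 (adjusted p = 0.00421), but was at -0.18 (adjusted p = 0.753) within libraries with a title ending. CRYAB, a small heat shock protein, fell by 1.09 in MSC lungs and did not pass in NaCl lungs, at 0.34; the direct difference of -1.43 did not pass by limma (adjusted p = 0.176) and did by DESeq2 (adjusted p = 0.0167).

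Airway and cilia genes were lower, 7 of 9 with a median log2 fold change of -1.58, and 7 of 9 without MSC replicate 6, with a median of -1.43. In NaCl lungs 6 of 9 fell, with a median of -1.63. Unlike the alveolar genes, this list was low in replicate 6 too, at -2.58 on the log2 scale relative to the healthy mean, with the other MSC libraries at -3.19 to -0.37. CFAP61, described below, is 1 of the 7 and makes part of these means low. It had 8.05 normalized reads in replicate 6 and a median of 3109 in healthy lungs. DNAH5 and DNAH9, motor subunits of the ciliary arms, fell by 1.96 and 1.83, and TEKT1 and CFAP43 of the ciliary axoneme by 1.42 and 1.45. PIFO, a gene of the ciliary base, did not pass at -0.64 (adjusted p = 0.285).

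CFAP61, a cilia and flagella protein (ENSOCUG00000015506), had a log2 change of -6.93 (SE 1.05, adjusted p = 0.000163), but its level lay in 2 separate ranges that cut across the groups, so this value depends on how many libraries of each group lie in either range. Whether the ranges reflect expression was not tested. All 7 MSC libraries held 3.10 to 30.3 normalized reads, as did NaCl replicates 2 and 7, at 6.86 and 10.2, and healthy replicate 3, at 13.2. The other 5 NaCl libraries held 1351 to 4575 and the other 6 healthy libraries 2399 to 5225. No library lay between the ranges, and the other cilia genes of the list did not divide the libraries in this way: CFAP43 had 50.4 to 275 normalized reads in MSC lungs, 58.3 to 277 in NaCl lungs and 225 to 433 in healthy lungs. For CFAP61 the difference from healthy in NaCl lungs was -1.70 (adjusted p = 0.384), and the direct difference of -5.23 between MSC and NaCl lungs passed by DESeq2 (adjusted p = 5.44e-12) and not by limma (adjusted p = 0.167).

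Of 11 tested genes of alveolar fluid transport 6 fell and 1 rose, with a median log2 fold change of -0.71. The counts were the same without MSC replicate 6. Over all genes tested 26.2% were lower and 25.8% higher. AQP8, a channel for water and hydrogen peroxide (ENSOCUG00000001864), had 3.65, 15.5 and 112 normalized reads in MSC lungs, 0, 10.0 and 33.1 in NaCl lungs and 411, 485 and 1131 in healthy lungs. No MSC library came near the healthy range, and the log2 fold change was -4.94 (SE 0.55, adjusted p = 4.41e-05). The sodium channel subunits SCNN1A and SCNN1B, through which the alveolus is kept dry, fell by 0.71 and 0.72, the chloride channel CFTR by 1.00 and AQP4, a water channel, by 1.59. AQP3, a channel for water and glycerol, had a log2 fold change of -0.08 (adjusted p = 0.889).

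Endothelial identity genes fell while genes of endothelial activation rose. Of 12 tested endothelial genes 8 fell and 1 rose, with a median log2 fold change of -1.12, or -1.25 without MSC replicate 6 at the same counts. TEK, the angiopoietin receptor (ENSOCUG00000017666), had 205, 340 and 1350 normalized reads in MSC lungs, 143, 237 and 549 in NaCl lungs and 904, 1207 and 1764 in healthy lungs. Replicate 6, at 1350, lay within the healthy range and the others reached at most 467; the log2 fold change was -1.73 (SE 0.33, adjusted p = 0.000638) and -2.04 (adjusted p = 1.05e-06) without it, but -0.73 (adjusted p = 0.278) within libraries with a title ending. SLC6A2, the noradrenaline transporter that lung endothelium carries, had 11.5, 37.2 and 4833 normalized reads in MSC lungs, 11.0, 30.1 and 779 in NaCl lungs and 1133, 1417 and 3453 in healthy lungs, the 4833 being replicate 6. KDR, the main receptor for vascular endothelial growth factor, fell by 1.62 and the apelin receptor APLNR by 2.05. ACKR1, a chemokine receptor of venules, rose by 0.95. CDH5, the cadherin of endothelial junctions, had 2891, 3877 and 8966 normalized reads in MSC lungs and 3382, 4581 and 5602 in healthy lungs, with a 95% interval of -0.56 to 0.43 for the log2 difference.

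Of 7 tested genes of endothelial activation, clotting and fibrinolysis, 6 rose with a median log2 fold change of 1.19, or 1.20 without MSC replicate 6, and 6 of 7 rose in NaCl lungs, with a median of 2.30. SELP, the selectin that captures rolling leukocytes (ENSOCUG00000016477), had 456, 5284 and 9401 normalized reads in MSC lungs, 8556, 9947 and 19711 in NaCl lungs and 187, 260 and 678 in healthy lungs. MSC replicate 6 lay within the healthy range, at 456, and the other 6 at 3547 or more; the log2 fold change was 3.67 (SE 0.53, adjusted p = 0.000125), and 2.39 (adjusted p = 0.101) within libraries with a title ending. SELE, the other selectin of activated endothelium, rose by 3.09. F3, tissue factor, which starts clotting, rose by 0.98 (adjusted p = 0.0435), TFPI, its inhibitor, by 1.68, and PLAU, the urokinase that activates plasminogen, by 1.19. VCAM1, an adhesion molecule for monocytes and lymphocytes, did not pass, at 0.70 (adjusted p = 0.163).

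Genes that remodel hyaluronan and matrix were among those farthest above healthy: 6 of 8 tested members rose and none fell, with a median log2 fold change of 4.22, and without MSC replicate 6 7 of 9 rose, with a median of 4.77. In NaCl lungs 9 of 9 rose, with a median of 6.21. ADAMTS4, a protease that cleaves matrix proteoglycans (ENSOCUG00000013498), had 134, 9385 and 19234 normalized reads in MSC lungs, 5910, 24144 and 49561 in NaCl lungs and 19.8, 31.6 and 71.3 in healthy lungs. MSC and healthy lungs did not overlap, and the log2 fold change was 6.57 (SE 0.92, adjusted p = 0.00011). TIMP1, an inhibitor of metalloproteases (ENSOCUG00000010718), had 19012, 103504 and 240407 normalized reads in MSC lungs, 90559, 173819 and 266521 in NaCl lungs and 2568, 4813 and 10003 in healthy lungs, again without overlap and with a log2 change of 4.18 (SE 0.46, adjusted p = 4.41e-05). HAS2, a hyaluronan synthase, rose by 3.69, and TNFAIP6 and PTX3, which build and cross-link the hyaluronan matrix, by 4.82 and 4.25. MMP12, the macrophage elastase, ranged from 272 to 5653 normalized reads in MSC lungs and from 483 to 1927 in healthy lungs and did not pass (adjusted p = 0.18).

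With MSC replicate 6 included, fibroblast and smooth muscle genes passed less often than the 52.0% called over all genes. Of 9 fibroblast and matrix genes 2 fell, 1 rose and the median log2 fold change was -0.53. Without MSC replicate 6, 5 fell and 1 rose, with a median of -0.79, beside 56.4% of all genes called. The fibroblast share was then no longer below that of all genes. In NaCl lungs 5 fell and 2 rose, with a median of -1.30, beside 60.2% of all genes called. TCF21, a transcription factor of lung lipofibroblasts (ENSOCUG00000017761), had 185, 839 and 2753 normalized reads in MSC lungs, 214, 457 and 951 in NaCl lungs and 2714, 3171 and 3653 in healthy lungs. Replicate 6 alone touched the healthy range, and the log2 fold change was -2.10 (SE 0.42, adjusted p = 0.000847). COL1A1, the chief collagen of scar and stroma, was highest in replicate 6, at 9044 normalized reads, with 3209 to 4598 in the other MSC lungs and 4505 to 5801 in healthy lungs; it did not pass with that library (-0.20, adjusted p = 0.395) and did without it (-0.37, adjusted p = 0.0127). Of 8 smooth muscle and pericyte genes 3 fell, with a median of -0.59, and 4 fell without replicate 6, with a median of -0.81. PDGFRB, the receptor that marks pericytes, had 1451, 2021 and 5398 normalized reads in MSC lungs, 512, 1201 and 1936 in NaCl lungs and 3331, 4125 and 5218 in healthy lungs. It fell from healthy by a log2 change of -0.88 (SE 0.23, adjusted p = 0.00492), and its difference between MSC and NaCl lungs, 1.02, passed by DESeq2 (adjusted p = 0.0371) but not by limma (adjusted p = 0.168). DES, the desmin of muscle, did not differ detectably from healthy (0.04, adjusted p = 0.941).

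Energy metabolism was altered unevenly. All 9 tested genes of glucose uptake and glycolysis rose, with and without MSC replicate 6, with a median log2 fold change of 1.20 and 1.40, and all 9 rose in NaCl lungs, with a median of 1.72. GAPDH, a central glycolytic enzyme (ENSOCUG00000025023), had 1982, 6300 and 13620 normalized reads in MSC lungs, 3454, 8011 and 20109 in NaCl lungs and 1150, 1390 and 2163 in healthy lungs. MSC replicate 6 alone overlapped the healthy range, and the log2 fold change was 2.02 (SE 0.30, adjusted p = 0.000156). PKM, the pyruvate kinase, rose by 2.61, SLC2A1, a glucose transporter, by 1.91 and TPI1, with the highest p, by 0.91 (adjusted p = 0.0151). In libraries with a title ending GAPDH stood at 1.07 (adjusted p = 0.102) and TPI1 at 0.08 (adjusted p = 0.878).

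Of 12 nuclear genes of oxidative phosphorylation, 4 rose and none fell in MSC lungs, a smaller share than the 52.0% called over all genes, with a median log2 fold change of 0.10, or 0.13 without MSC replicate 6. In NaCl lungs 3 rose and 3 fell, with a median of -0.11, and the direct difference between MSC and NaCl lungs passed for none of the 12. NDUFS1, the largest subunit of complex I (ENSOCUG00000012368), had 844, 1133 and 1382 normalized reads in MSC lungs, 977, 1111 and 1275 in NaCl lungs and 673, 739 and 879 in healthy lungs. MSC replicate 3, at 844, alone lay within the healthy range, and the log2 fold change was 0.57 (SE 0.12, adjusted p = 0.00114). NDUFB6, another subunit of complex I, had the highest p, with a log2 fold change of -0.01 and a 95% interval of -0.32 to 0.30.

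Of 9 fatty acid oxidation genes, 2 fell and 1 rose in MSC lungs, a smaller share than the 52.0% called over all genes, with a median log2 fold change of -0.27. In NaCl lungs 7 of 9 fell and 1 rose, with a median of -0.71. Without MSC replicate 6, 3 fell and 1 rose, with a median of -0.30. The direct difference between MSC and NaCl lungs was positive for 8 of the 9 means, with a median of 0.53, and passed the test for none. HADH, an enzyme of the oxidation cycle (ENSOCUG00000014271), had a log2 difference of -1.19 (SE 0.22, adjusted p = 0.000543), with 411, 502 and 1072 normalized reads in MSC lungs, 217, 403 and 653 in NaCl lungs and 1045, 1409 and 1641 in healthy lungs. ACADM, the medium-chain dehydrogenase, fell by 0.85 and ACADVL, the very-long-chain one, rose by 0.62. CPT2, which admits long-chain fatty acids to the matrix, had 198, 326 and 463 normalized reads in MSC lungs, 147, 219 and 334 in NaCl lungs and 301, 349 and 445 in healthy lungs. Its log2 difference from healthy was -0.11 in MSC lungs (95% interval -0.48 to 0.27) and -0.71 in NaCl lungs (adjusted p = 0.00177).

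Of 14 genes of mitochondrial quality and biogenesis, 7 rose and 1 fell, close to the 52.0% called over all genes, with a median log2 fold change of 0.43. Without MSC replicate 6, 6 rose and 1 fell, with a median of 0.49, and in NaCl lungs 8 rose and 1 fell, with a median of 0.53. The member that fell was PINK1, a kinase through which damaged mitochondria are tagged for clearance (ENSOCUG00000006306), with 1216, 1850 and 4231 normalized reads in MSC lungs, 1020, 1651 and 2903 in NaCl lungs and 4972, 6402 and 8401 in healthy lungs. Its MSC and healthy ranges did not overlap even with replicate 6, which was the highest MSC library, and the log2 fold change was -1.76 (SE 0.23, adjusted p = 8.2e-05). The difference between MSC and NaCl lungs was 0.19 (95% interval -0.44 to 0.83). MFN1 and OPA1, which fuse mitochondria, rose by 0.69 and 0.83, TFAM, which packs mitochondrial DNA, by 0.57 and PPRC1, a coactivator of biogenesis, by 1.21. SIRT1, a deacetylase that acts on that coactivator family, had the highest p (0.01, adjusted p = 0.985). PPARGC1A, the best known coactivator of biogenesis, had 3.15 to 10.4 normalized reads in MSC lungs and 5.26 to 10.8 in healthy lungs and was under the minimum for testing.

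Of 13 tested antioxidant genes 5 rose and 3 fell, with a median log2 fold change of 0.13. Over all genes tested 25.8% were higher and 26.2% lower. Without MSC replicate 6, 7 of 14 antioxidant genes rose and 3 fell, with a median of 0.47. GCLM, the modifier subunit of glutathione synthesis (ENSOCUG00000013796), had 629, 1523 and 2108 normalized reads in MSC lungs, 1053, 1773 and 3778 in NaCl lungs and 220, 319 and 457 in healthy lungs, without overlap with healthy and with a log2 change of 2.13 (SE 0.24, adjusted p = 4.91e-05). HMOX1, the inducible haem oxygenase, rose by 1.93 in MSC lungs and by 3.63 in NaCl lungs. The direct difference of -1.70 in HMOX1 passed by DESeq2 (adjusted p = 0.0282) and not by limma (adjusted p = 0.168). SOD3, the extracellular superoxide dismutase, fell by 3.37, PRDX6, a peroxiredoxin abundant in lung, by 1.43 and SOD1 by 0.74. GCLC, the catalytic partner of GCLM, had 48.3, 119 and 530 normalized reads in MSC lungs, 168, 291 and 674 in NaCl lungs and 79.9, 130 and 172 in healthy lungs. Its log2 fold change from healthy was 0.02 in MSC lungs (95% interval -0.80 to 0.85) and 1.37 in NaCl lungs (adjusted p = 0.00175).

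Stress genes were high: 7 of 8 genes of the integrated and endoplasmic reticulum stress response rose with and without MSC replicate 6, with a median log2 fold change of 1.53 and 1.75, against 7 of 8 in NaCl lungs, with a median of 1.72. CHAC1, which degrades glutathione under stress (ENSOCUG00000010762), had 78.1, 411 and 760 normalized reads in MSC lungs, 210, 347 and 711 in NaCl lungs and 35.5, 39.5 and 62.4 in healthy lungs, with a log2 change of 2.83 (SE 0.40, adjusted p = 0.000119). HERPUD1, of the degradation machinery of the reticulum, did not pass, at -0.23 (adjusted p = 0.231). Of 9 hypoxia-response genes 4 rose and 2 fell, beside 52.0% of all genes called in either direction, with a median of 0.60. Without replicate 6, 6 rose and 2 fell, with a median of 0.80. HIF1A, the oxygen-regulated transcription factor, had 2148, 5286 and 11555 normalized reads in MSC lungs, 4015, 5226 and 13172 in NaCl lungs and 399, 1025 and 1558 in healthy lungs, without overlap with healthy and with a log2 change of 2.54 (SE 0.35, adjusted p = 0.000103). Its relative EPAS1, abundant in lung endothelium, fell by 1.06 (adjusted p = 0.0206), with 133136 normalized reads in MSC replicate 6 and 19866 to 67432 in the other MSC lungs. KDM3A, a demethylase that hypoxia induces, had a log2 fold change of -0.02 (adjusted p = 0.928).

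**Figure D4:**
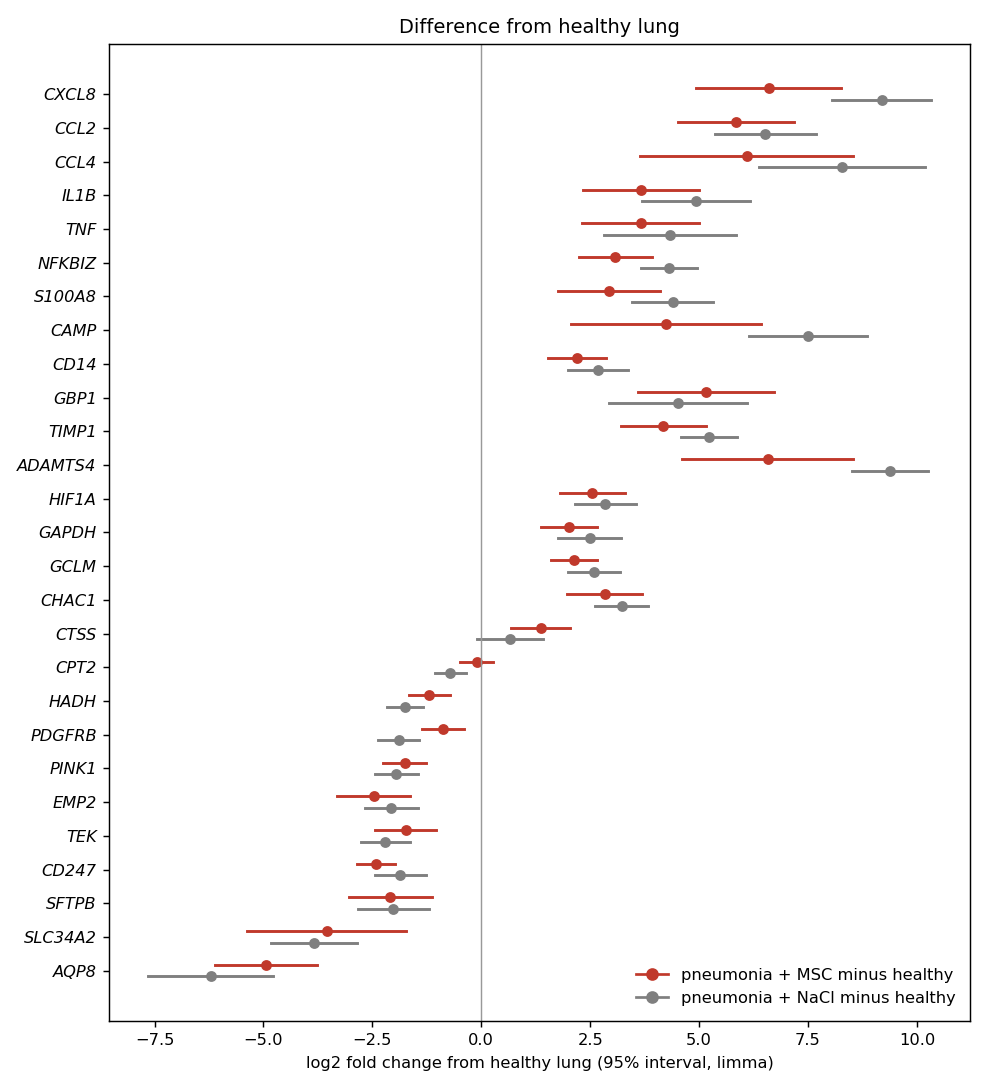
Log2 fold change from healthy lung (horizontal axis) with its 95% limma interval for named genes, in MSC lungs and in NaCl lungs, which share the same 7 healthy libraries. CXCL8 stands at 6.60 in MSC and 9.19 in NaCl lungs, and SLC34A2 at -3.55 and -3.84.

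Among called genes that carry a symbol and average 50 normalized reads or more, the 8 largest rises were those of CXCL8, ADAMTS4, CA12, CCL4, FOSL1, CCL2, FGFBP1 and ARG1. CA12, an extracellular carbonic anhydrase, had 18.5, 802 and 1301 normalized reads in MSC lungs, 114, 193 and 1227 in NaCl lungs and 1.32, 5.40 and 10.5 in healthy lungs, with a log2 change of 6.30 (SE 0.78, adjusted p = 6.3e-05). FOSL1, a subunit of the AP-1 transcription factor, rose by 5.88 (SE 0.78), FGFBP1, which releases growth factors from the matrix, by 5.77 (SE 0.65) and ARG1, the arginase of activated myeloid cells, by 5.64 (SE 0.78). In each of these 4 genes MSC and healthy lungs did not overlap, and MSC replicate 6 was the lowest MSC library. In NaCl lungs their log2 fold changes from healthy were 5.88 for CA12, 7.93 for FOSL1, 6.79 for FGFBP1 and 5.90 for ARG1.

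The 8 largest falls were those of CFAP61, GLIS1, MYOC, AQP8, METTL7B, IHH, DAPL1 and ITPRID1. GLIS1, a zinc-finger transcription factor (ENSOCUG00000016480), had 1.05, 2.08 and 44.3 normalized reads in MSC lungs, 1.34, 3.14 and 11.0 in NaCl lungs and 113, 337 and 464 in healthy lungs, with a log2 change of -5.60 (SE 0.66, adjusted p = 5.5e-05). IHH, a ligand of the hedgehog pathway (ENSOCUG00000028137), had 0.913, 5.74 and 49.1 normalized reads in MSC lungs, 4.30, 12.1 and 23.0 in NaCl lungs and 124, 280 and 446 in healthy lungs, with a log2 change of -4.69 (SE 0.57, adjusted p = 5.64e-05). Neither gene reached the healthy range in any MSC or NaCl lung. MYOC, the secreted glycoprotein myocilin, fell by 5.10, METTL7B, a methyltransferase-like protein, by 4.93 and ITPRID1 had a log2 fold change of -4.43, again with no overlap with healthy. DAPL1 fell by 4.53 (adjusted p = 0.00269), with 275 normalized reads in MSC replicate 6, at most 24.8 in the other MSC lungs and 17.1 to 359 in healthy lungs.

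The 5 largest changes in MSC lungs that did not pass in NaCl lungs were those of CFAP61, EDIL3, ATP1A4, BPIFB1 and MARCO. EDIL3, a matrix protein that endothelium secretes and that hinders leukocyte adhesion (ENSOCUG00000017338), had 19.4, 28.7 and 69.2 normalized reads in MSC lungs, 12.1, 210 and 444 in NaCl lungs and 232, 271 and 720 in healthy lungs. MSC and healthy lungs did not overlap, and the log2 fold change was -3.46 (SE 0.33, adjusted p = 1.65e-05). It was -1.43 in NaCl lungs (adjusted p = 0.0566), and the direct difference of -2.02 passed by DESeq2 (adjusted p = 0.00162) and not by limma (adjusted p = 0.171). ATP1A4, a sodium pump subunit known from sperm, rose by 3.30 (SE 0.79, adjusted p = 0.00298), with 8.86 to 312 normalized reads in MSC lungs and 0 to 11.3 in healthy lungs. BPIFB1, a secreted protein of the airway, fell by 3.18 (SE 0.96, adjusted p = 0.0121), with 10.5 to 1315 normalized reads in MSC lungs and 95.9 to 2603 in healthy lungs. For ATP1A4, BPIFB1 and MARCO the direct difference between MSC and NaCl lungs did not pass by limma or by DESeq2. All 5 genes were chosen for passing in MSC and not in NaCl lungs, which favours a direct difference. The DESeq2 values of EDIL3 and CFAP61 are therefore no separate support for one.

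No gene passed in the direct comparison of MSC with NaCl lungs by limma, out of 9526 tested (0%). The lowest adjusted p was 0.167, 1667 genes (17.5%) had an unadjusted p under 0.05, and the groups did not overlap for 20 genes (0.210%). edgeR on the recovered reads also called none, with 1705 at an unadjusted p under 0.05, whereas DESeq2 on the same reads called 337 genes, 193 higher and 144 lower in MSC lungs, with 2172 at an unadjusted p under 0.05. The authors' deposited table lists 336 genes at an adjusted p under 0.05, 190 of them higher in MSC lungs and 146 lower. Statements that MSC lungs lie nearer to healthy than NaCl lungs therefore rest on the separate comparisons with healthy, except where a direct DESeq2 value is given. Those comparisons share the healthy libraries, and some genes with a DESeq2 value were chosen in a way that favours a direct difference.

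Of 3445 genes (35.7%) that passed in NaCl lungs and differed by 1 log2 unit or more, 3388 could be tested in MSC lungs. In MSC lungs 3016 of them passed in the same direction, against the same healthy libraries. A set of 193, which can overlap with those, had a 95% interval for MSC minus healthy within 1 log2 unit of healthy. That count was 317 without MSC replicate 7, 55 within libraries with no title ending and 73 within those with one. The 6 of these with the largest NaCl change were SPATA16, SGCA, LGALS3, BAG3, RASL12 and LEPROT. LGALS3, galectin 3, a lectin of macrophages and epithelium (ENSOCUG00000002924), had 6640, 12055 and 17292 normalized reads in MSC lungs, 15690, 22605 and 46000 in NaCl lungs and 6400, 7709 and 10742 in healthy lungs. Its MSC range overlapped the healthy one and reached above it, with a log2 difference of 0.49 (95% interval 0.06 to 0.92) against 1.69 in NaCl lungs. BAG3, a co-chaperone of heat shock proteins (ENSOCUG00000011696), had 1219, 1662 and 2212 normalized reads in MSC lungs, 1284, 4548 and 9287 in NaCl lungs and 934, 1466 and 1552 in healthy lungs. All 7 MSC libraries of BAG3 lay under the NaCl median, and the difference from healthy was 0.32 in MSC lungs (95% interval -0.03 to 0.66) and 1.69 in NaCl lungs.

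The other 4 genes went both ways. SPATA16, a gene known from spermatogenesis, had 2088 to 4461 normalized reads in MSC lungs, 2971 to 22857 in NaCl lungs and 1736 to 3254 in healthy lungs, with differences from healthy of 0.52 in MSC and 1.99 in NaCl lungs. LEPROT, a protein that lowers leptin receptor at the cell surface, stayed partly down, with 1105 to 2470 normalized reads in MSC lungs, 562 to 1195 in NaCl lungs and 2205 to 3012 in healthy lungs, and differences from healthy of -0.59 and -1.54. SGCA, the alpha sarcoglycan of muscle membranes, had a difference of -0.09 in MSC lungs and -1.80 in NaCl lungs, and RASL12, a small GTPase, -0.13 and -1.68. The direct difference between MSC and NaCl lungs passed by DESeq2 for all 6, with adjusted p-values of 0.00273 for SPATA16 and BAG3, 0.00424 for LEPROT, 0.00736 for LGALS3, 0.00833 for RASL12 and 0.045 for SGCA, and by limma for none, at 0.167 or 0.168. The 6 genes were chosen for a large NaCl change and an MSC interval near healthy. That choice favours a direct difference, so the DESeq2 values are no separate support for it. Without MSC replicate 6 LGALS3 and BAG3 passed against healthy, at 0.58 (adjusted p = 0.0204) and 0.39 (adjusted p = 0.0485).

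**Figure D5:**
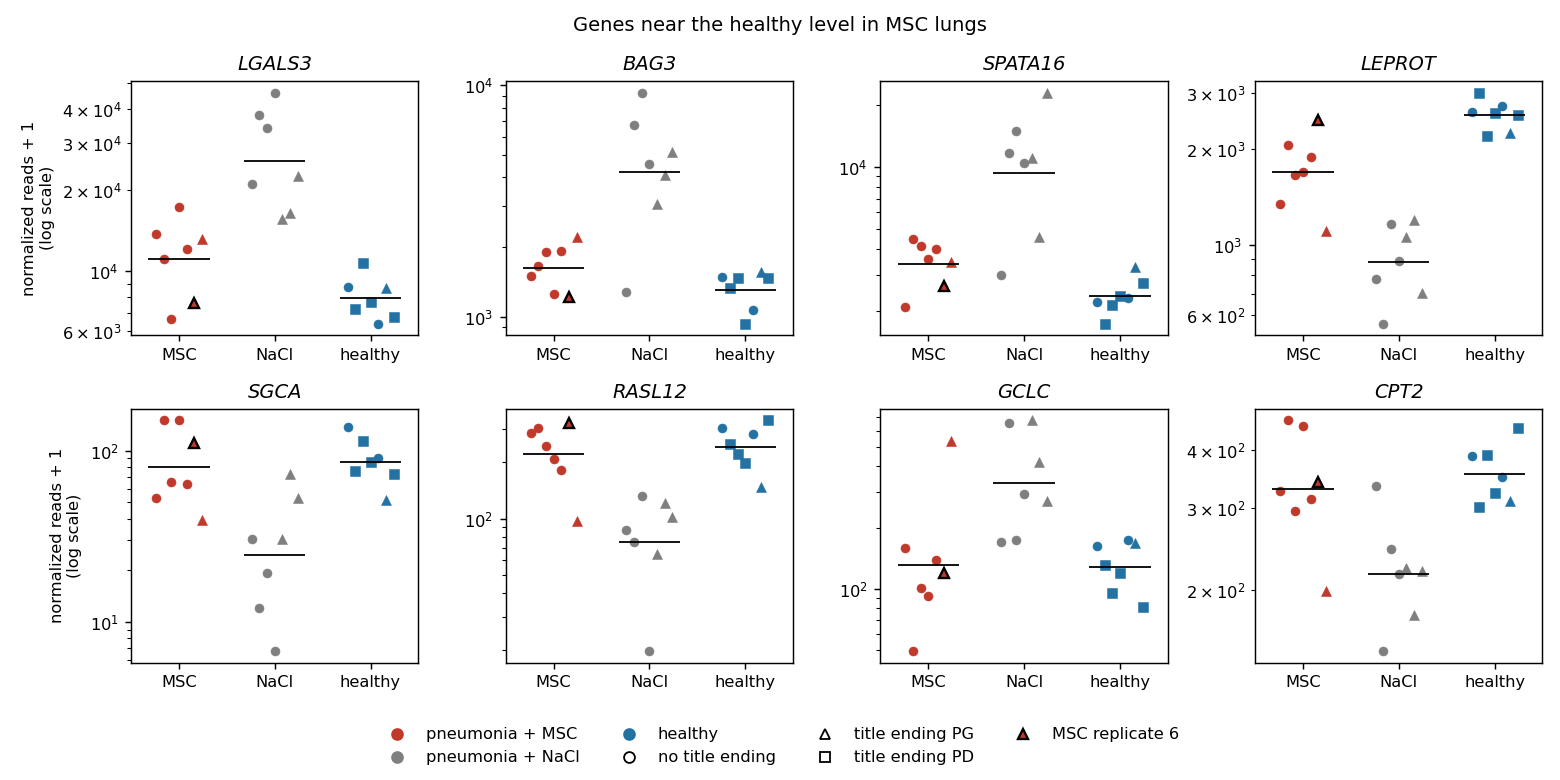
Normalized reads plus 1 on a log axis, with 1 point per library in MSC, NaCl and healthy lungs from left to right. Shown are the 6 genes named above, near healthy and with the largest NaCl change, and GCLC and CPT2, the members with the highest p of their lists. Symbols give the title ending, a black outline marks MSC replicate 6 and the horizontal bars are group means on the log2 scale. BAG3 lies at 1219 to 2212 in MSC lungs, 1284 to 9287 in NaCl lungs and 934 to 1552 in healthy lungs, and GCLC spreads from 48.3 to 530 in MSC lungs.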

How the data were processed

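Lung messenger RNA was read as stranded single-end libraries of 75 bp and trimmed with Cutadapt 1.15, per the labels' protocols. TopHat2 2.1.1, featureCounts 1.5.2 and DESeq2 1.24.0 are named, with no role, per the submitters' processing notes. Genome build and annotation: not given in the sources used here. Deposited tables hold, per the file headers, a signal for each library, namely reads per gene over a size factor set per table. They also hold the log2 fold change and p-value of the authors' own comparisons, of which only counts are printed.

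MSC and healthy libraries stand in separate tables. Each library column was therefore divided by its smallest nonzero value; 100% of the nonzero values were then whole within a relative tolerance of 1e-06, and the 7 NaCl libraries that stand in both tables gave identical reads. The reads were joined by gene ID and scaled over 21 libraries by TMM (edgeR 4.0.16) to the mean effective library size. Within a group, no pair of libraries had a chi-square per degree of freedom under 37.17, so none was a copy of another.

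limma 3.58.1 in R 4.3.3, with an intensity trend, was fitted two-sided to log2(normalized reads + 1) over the 14 libraries of a comparison, with no covariate; fold changes are on that scale, which understates low genes. Genes with at least 10 normalized reads in at least 7 libraries were tested (in subsets, in 50% of the libraries, rounded down), with Benjamini-Hochberg adjustment over all of them and a threshold of 0.05. edgeR's quasi-likelihood test and DESeq2 1.42.0 were run on the recovered reads as alternatives; for MSC against healthy edgeR called 4901 genes and DESeq2 5605. The limma and edgeR fits were tested on simulated data. Each p-value sets a group difference against the spread between libraries within groups, with 1 library per rabbit. The depth of a library limits low genes only.

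The comparison, the 30 gene lists and the rule for naming genes were chosen with earlier results of these data known. Named genes are the 8 largest rises and falls of called genes that carry a symbol and average 50 or more; per list, the called member with the lowest p and the tested member with the highest p; the 5 largest changes that did not pass in NaCl lungs; the 6 genes near healthy with the largest NaCl change; and a panel of 11 genes. Other list members are given to describe their list and were chosen after their values were seen. A few genes, 1 of them named by this rule, are not reported here. Counts of list members carry no set test. Where the number of tested members differs between comparisons, their counts and medians cover unlike sets of genes. For MSC against healthy they stand beside 52.0% of all genes called, 25.8% higher and 26.2% lower. Other tables of the series were not used here.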

Additional observations from a re-analysis of the deposited data

Results flagged for a closer look

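In 199 groups of 7 libraries, the MSC and the healthy values of genes named by rule that reached 10 normalized reads, and the MSC values of each list, the gap between the outermost library and its nearest neighbour was set against the whole range on the log2 scale. It exceeded Dixon's critical share for 7 values in 18 groups, where chance flags about 1 in 20, and in 8 of the 18 the outermost library was MSC replicate 6. That library was low for CXCL8 at 341 normalized reads, IL6 at 8.86, IL1R2 at 201, S100A8 at 11758, FGFBP1 at 97.4 and SELP at 456, and high for EMP2 at 14708 and COL1A1 at 9044.

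Of the remaining MSC values, MMP12 stood apart at 272 normalized reads in replicate 1, HERPUD1 at 3291 in replicate 7, and the mean of the complement list at 3.15 log2 units above the healthy mean in replicate 2. Among healthy lungs, replicate 3 stood apart for CXCL8 at 39.5 normalized reads and for CFAP61 at 13.2, and replicate 6 for CD4 at 19.6, KDM3A at 1072 and MCM2 at 42.5. Healthy replicate 7 was high for MARCO at 961 normalized reads and for CAMP at 1067.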

How the results depend on the processing

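MSC against healthy gave 5016 called genes, 2489 higher and 2527 lower. Within libraries with no title ending it gave 3231 (1658 higher, 1573 lower), within those with one 590 (174 higher, 416 lower), and with a change of at least 1 log2 unit 2554 (1083 higher, 1471 lower). Leaving out 1 library in turn gave 4577 to 5487 calls, 2240 to 2714 higher and 2320 to 2773 lower. NaCl against healthy gave 5809 calls, 3583 (1828 higher, 1755 lower) within no ending, 3445 (1527 higher, 1918 lower) at 1 log2 unit, and 5491 to 5874, 2655 to 2823 higher and 2836 to 3052 lower with 1 library left out.

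MSC against NaCl gave 0 calls by limma, 337 by DESeq2 (193 higher, 144 lower), 27 (17 higher, 10 lower) with 1 fit over all 21 libraries, 1 (1 higher) with a filter of 1 library and 7 (4 higher, 3 lower) within no ending. With 1 library left out it gave 0 to 5 calls, 0 to 3 higher and 0 to 2 lower, with 5 lacking NaCl replicate 1 and 3 lacking MSC replicate 1. The 193 genes near healthy became 55 within no ending and 73 within those with one, and 139 to 317 with 1 library left out, the 317 without MSC replicate 7. Called list members numbered 29 within libraries with an ending and 158 to 180 with 1 library left out. Within libraries with an ending, NFKBIA stood at -0.22 and C2 at -0.25, both reversed. Over the alternatives, values of named genes kept direction and side of the threshold 2084 times, lost the call 67 times and gained it 17 times. Another 88 values, of 22 genes that were not called, changed sign without passing. The cause of these differences was not tested.

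No paired analysis was possible because the replicate numbers were given in accession order and pair no rabbits. Few reads limit low genes such as PPARGC1A and MPO, and 2 MSC libraries with a title ending limit every value within that subset.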

Other observations

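The remaining gene groups moved in both directions, held few called genes or rested on few members. Of 7 tested growth factors of epithelial repair 3 rose and 3 fell, beside 25.8% higher and 26.2% lower over all genes tested. Their median log2 fold change was -0.18, or -0.14 without MSC replicate 6 at the same counts. AREG, a ligand of the epidermal growth factor receptor, had 53.9, 188 and 756 normalized reads in MSC lungs, 63.1, 369 and 2457 in NaCl lungs and 14.5, 20.7 and 66.6 in healthy lungs, and rose by 2.74 (limma adjusted p = 0.000702). HBEGF, a ligand of the same receptor, rose by 2.73 and FGF7, which stimulates epithelium, by 2.51. HGF, the hepatocyte growth factor, had a log2 fold change of -1.11 and WNT5A one of -1.02; both passed, and FGF10, which guides lung development, fell too. TGFA did not pass, at -0.18. Of 14 cell cycle genes MCM2 and MCM6, parts of the replicative helicase, rose by 0.71 and 0.59 and none fell, with a median of 0.12, or 0.16 without replicate 6.

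UPK3B, a mesothelial surface gene (ENSOCUG00000012402), had 18.4, 121 and 469 normalized reads in MSC lungs, 96.7, 394 and 660 in NaCl lungs and 923, 1308 and 2112 in healthy lungs. No MSC library reached the healthy range, and the log2 fold change was -3.78 (SE 0.48, limma adjusted p = 7.43e-05); KRT8, the other tested mesothelial gene, stood at -0.07, and the median of both was -1.93. Of 5 red cell and platelet genes 2 fell, with and without replicate 6, with a median of -0.56 and -0.46. HBB2, a beta globin, had a log2 fold change of -1.65 (limma adjusted p = 0.00324), with 29418, 91089 and 192500 normalized reads in MSC lungs, 41990, 225148 and 1051290 in NaCl lungs and 125624, 290211 and 477877 in healthy lungs. Of 3 striated muscle genes RYR2, the calcium release channel of heart, fell, at -1.49 (limma adjusted p = 0.0249), with a median of -1.13 and 1 of 3 falling also without replicate 6.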
